A study of Mus musculus with 17 samples.

Results

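The genes described here are the secreted Wnt ligands, their receptors and co-receptors, the R-spondins and their Lgr receptors, the secreted inhibitors of the pathway, and 3 nuclear or feedback genes. They were chosen by symbol as the protein-coding Wnt, Fzd, Sfrp, Dkk and Rspo genes plus Lgr4, Lgr5, Lgr6, Lrp4, Lrp5, Lrp6, Wif1, Notum, Axin2, Lef1 and Tcf7. The rule itself uses no measured value, but it was set with earlier results of these data known. This gave 52 of the 55335 genes in the count tables: 19 Wnt ligands, 10 Frizzled receptors, 3 Lrp co-receptors, 7 R-spondins and Lgr receptors, 10 secreted inhibitors and 3 nuclear or feedback genes. RNA-seq was performed on 2 bone stromal populations of the mouse, each from mice with 0, 1 or 2 copies of a mutant Cxcr4 allele. Cxcr4 encodes the receptor for the chemokine CXCL12, and the 1013 allele is a knock-in carried by every cell of the body that shortens the C-terminal tail of the receptor, a gain-of-function change linked to the WHIM immunodeficiency syndrome. Each library was a pool of 3000 sorted cells from 3 mice.

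The groups were Cxcr4+/+ (WT), heterozygous Cxcr4+/1013 (+/1013) and homozygous Cxcr41013/1013 (1013/1013) littermates, which were females of 8 to 12 weeks. The labels name no other allele and no agent. Osteoprogenitor cells (OPCs), sorted as CD45-TER119-CD31-Sca-1-CD51+PDGFRα+/-, were measured in 3 libraries of each genotype. Skeletal stromal/stem cells (SSCs), sorted as CD45-TER119-CD31-Sca-1+CD51+PDGFRα+, were measured in 3 WT, 3 +/1013 and 2 1013/1013 libraries. Both populations came from flushed long bones that were then digested with collagenase, so they are cells of the bone fraction and not of the flushed marrow. The comparisons below ask how Wnt pathway genes differ between OPCs and SSCs, and whether they differ between the 3 genotypes within each population. All p-values measure the spread between these pools.

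Wnt ligands bind a Frizzled receptor together with Lrp5 or Lrp6, which stabilises β-catenin, and β-catenin then acts in the nucleus with the DNA-binding proteins Tcf7 and Lef1. R-spondins, bound by Lgr receptors, keep Wnt receptors on the cell surface, whereas Dickkopf proteins such as Dkk1 bind Lrp5 and Lrp6, secreted Frizzled-related proteins (Sfrp) and Wif1 bind Wnt ligands, and Notum removes the lipid that Wnt ligands need. In bone, Wnt signalling is known for promoting the formation and activity of osteoblasts, and loss of Lrp5 function lowers bone mass.

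The OPC libraries held 64099849 to 92683497 counts on genes and the SSC libraries 44217695 to 50509592. The marker genes set out for each population followed the sort: the sum of 5 SSC sort markers, among them the Sca-1 gene Ly6a and Pdgfra, lay between 1890 and 4590 CPM, that is counts scaled to a library total of 1000000, in SSCs and between 145 and 488 CPM in OPCs, and the sum of 7 osteoblast lineage markers between 93000 and 225000 CPM in OPCs and between 2280 and 16700 CPM in SSCs. OPC libraries also held more transcripts of 6 chondrocyte markers (10900 to 88000 CPM, against 66.6 to 5580 CPM in SSCs). Within SSCs, the osteoblast lineage sum was 11600 to 16700 CPM in the 3 WT libraries and 2280 to 4820 CPM in the 5 mutant ones. Counts were seen for 21449 to 22599 genes in WT SSCs and 15748 to 19227 in mutant SSCs, so genotype and library properties cannot be told apart in that population. In 4 libraries other values stood apart: WT OPC replicate 3, 1013/1013 OPC replicate 2 and WT SSC replicate 3 held the most transcripts of 10 leukocyte markers (4190 to 6890 CPM), and 1013/1013 SSC replicate 1 had counts for the fewest genes. Cxcr4 itself did not pass the test in any genotype comparison. In CPM of the TMM-scaled library size, it was at 4.48 to 19.4 in OPCs, 0.719 to 47.2 in WT SSCs and 0.11 to 0.838 in mutant SSCs. A count of the whole gene does not check a knock-in that shortens the protein.

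Between the cell types, 45 of the 52 genes had enough counts to be tested. The other 7 were Wnt3, Wnt3a, Wnt7a, Wnt8a and Wnt9b, which had no count in any library, Fzd6, with 2 counts over all 17 libraries, and Dkk4, with 10. Averaged over the 3 genotypes, 29 of the 45 differed between SSCs and OPCs by at least 1.5-fold at an adjusted p under 0.05 (quasi-likelihood test of edgeR, p-values adjusted over all genes by Benjamini-Hochberg). Of these, 15 were higher in SSCs and 14 lower. Among all 20238 genes tested, 30.2% met the same rule (15.3% higher and 14.9% lower). With at least 10 counts required in every library, 19 were called (background 41.2% of the 10144 genes left). That filter left out some of the 45 genes, among them Wnt2, Dkk1, Dkk2, Rspo2 and Tcf7, so the 19 are not a share of 45. Without the 4 libraries that stood apart, 28 were called (background 24.7%). The median log2 difference, SSC over OPC, was 0.20 over the 45 genes and -0.04 over all genes. For 14 of the 45 genes (8 higher in SSCs and 6 lower) no SSC library overlapped an OPC library, against 10.9% of all genes (5.71% higher and 5.17% lower). A gene that passed the filter on low counts only through the population where it is abundant had to differ, so these counts describe the genes and do not support anything further. In bulk RNA, a lower level may reflect fewer cells of a type or less RNA per cell, and these cannot be told apart here.

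Within WT, 14 genes were called (9 higher in SSCs and 5 lower, background 11.4% with 5.55% higher and 5.86% lower), or 8 when replicate numbers were used as pairs (background 5.26%). Within +/1013, 16 were called (6 higher and 10 lower, background 12.5% with 6.44% higher and 6.02% lower), and within 1013/1013, 15 were called (8 higher and 7 lower, background 13.1% with 6.94% higher and 6.12% lower). In each of the 3 genotypes, the same 9 genes were called in the same direction, namely Wnt2, Wnt9a, Dkk2, Dkk3 and Sfrp4 as higher in SSCs and Wnt5b, Lgr4, Dkk1 and Tcf7 as lower, against 5.13% of all genes. With replicate numbers as pairs in WT, 6 of the 9 kept their call there, and Wnt2 (adjusted p = 0.066), Lgr4 (adjusted p = 0.0784) and Tcf7 (adjusted p = 0.109) lost it. These counts per genotype moved by more than 1.5-fold with single libraries. The WT count was 9 without WT OPC replicate 3 and 7 without WT SSC replicate 2, the +/1013 count was 10 without +/1013 OPC replicate 3, and the 1013/1013 count was 8, 9 and 9 without OPC replicate 1, OPC replicate 3 and SSC replicate 1 of that genotype. Of the 29 genes called over the mean of genotypes, 28 had the same sign in all 3. The exception was Fzd3, which was lower in SSCs in WT and +/1013 and had a log2 difference of 0.52 in 1013/1013.

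**Figure D1:**
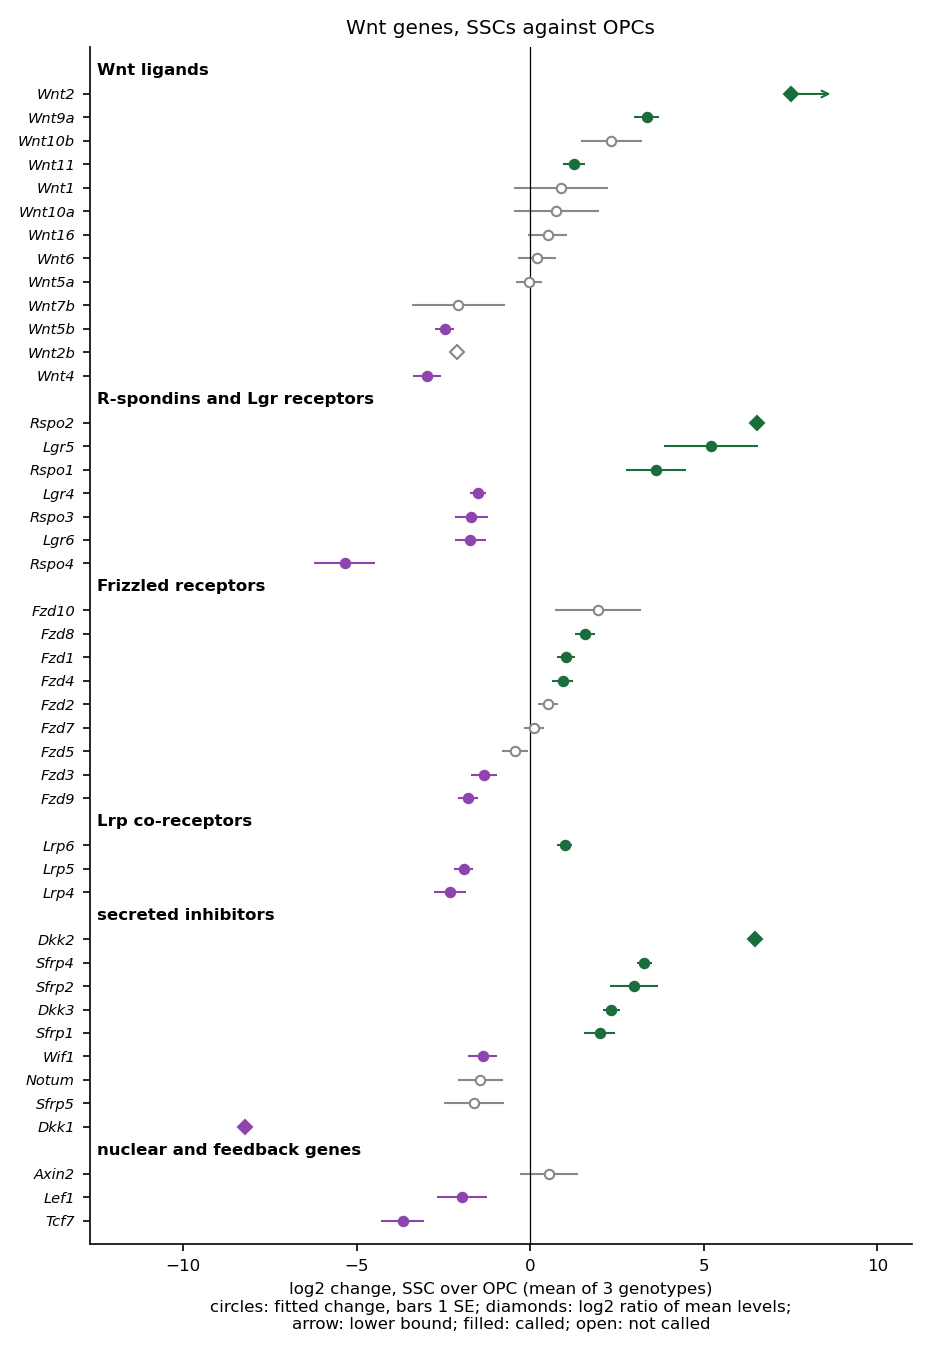
Log2 difference in level between SSCs and OPCs (SSC over OPC, mean of the 3 genotypes) for the tested genes, grouped by role; circles are fitted values with bars of 1 SE, diamonds are log2 ratios of mean levels for genes near 0 in one population, the arrow is the lower bound for Wnt2, filled symbols passed the test and open ones did not, and Wnt8b is left out. Both directions occur among ligands, receptors and inhibitors, with Dkk1 and Rspo4 far to the left and Wnt2, Rspo2 and Dkk2 far to the right.

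Among the Wnt ligands, OPCs and SSCs used different members. Wnt5b, a ligand that mostly acts without β-catenin, and Wnt4 were higher in OPCs, whereas Wnt11, Wnt9a and Wnt2 were higher in SSCs. Of 14 ligands tested, these 3 were called higher in SSCs and these 2 lower. Levels are given from here on as CPM of the TMM-scaled library size. Wnt5b had a median of 105 CPM in the 9 OPC libraries (lowest 79.2, highest 142) and 14.5 CPM in the 8 SSC libraries (lowest 9.81, highest 39.8). Every OPC library lay above every SSC library, and the log2 difference was -2.47 (SE 0.27, adjusted p = 1.28e-05). Wnt4 had a median of 29.1 CPM in OPCs (20.5 to 39.8) and 2.35 CPM in SSCs (1.09 to 11.5), again with no overlap (log2 -2.98, SE 0.41, adjusted p = 9.74e-05).

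Wnt9a, a ligand known from joint formation, showed the opposite order, with a median of 2.62 CPM in OPCs (1.19 to 9.88) and 34.3 CPM in SSCs (28.8 to 54.4). All 8 SSC libraries were above all 9 OPC libraries, and the log2 difference of 3.36 (SE 0.36, adjusted p = 9.74e-06) was called in each genotype. Wnt2 was read 4130 times in the 8 SSC libraries and not once in the 9 OPC libraries. Its SSC levels ran from 2.59 to 17.1 CPM with a median of 9.25, which is at least 184-fold above the mean level that 3 counts per library would give in OPCs (adjusted p = 2.77e-06). Wnt11 was abundant in both populations, with a median of 35.6 CPM in OPCs (13.3 to 75.1) and 91.8 CPM in SSCs (39 to 138). Its ranges overlapped, and the log2 difference was 1.26 (SE 0.33, adjusted p = 0.0101). Wnt11 was not called within any single genotype. Of the exonic bases of Wnt11, 8.799% also lie in a pseudogene on the other strand, and whether the counting used strand is not given in the sources used here.

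The 9 other tested ligands did not pass the test. Wnt5a was at nearly equal levels, with a median of 11.1 CPM in OPCs (4.8 to 16.9) and 12.2 CPM in SSCs (1.17 to 20.1), and a log2 difference of -0.03 (SE 0.38). Wnt6 and Wnt16 had medians of 2.08 and 2.58 CPM in OPCs and of 2.69 and 4.22 CPM in SSCs. Wnt10b, a ligand known for acting on osteoblast formation, had a median of 0.553 CPM in OPCs and 2.51 CPM in SSCs (log2 2.34, SE 0.88, adjusted p = 0.0549). Wnt7b had a median of 2.03 CPM in OPCs and 0.157 CPM in SSCs, where 4 of 8 libraries held more than 3 counts (log2 -2.08, SE 1.34, adjusted p = 0.263). Wnt1, Wnt10a, Wnt2b and Wnt8b stayed under 1 CPM in the median of both populations.

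Scaled to transcript length, Wnt5b was the leading ligand of OPCs and Wnt11 that of SSCs, and the promoters of both are printed because they mark this exchange. Wnt5b (ENSMUSG00000030170.14) lies on the minus strand at chr6:119432531-119544347 and Wnt11 (ENSMUSG00000015957.12) on the plus strand at chr7:98835112-98855195. Each promoter runs from 250 bases before to 50 bases after a RefSeq start site on GRCm38.p6, at chr6:119449337-119449636 on the minus strand for Wnt5b and chr7:98834862-98835161 on the plus strand for Wnt11, and is written 5′ to 3′ on the strand of the gene. Capitals mark the TCF/LEF motif, searched as CTTTGAT and CTTTGAA on both strands, so that a match on the other strand of Wnt11 is printed as ATCAAAG.
Wnt5b: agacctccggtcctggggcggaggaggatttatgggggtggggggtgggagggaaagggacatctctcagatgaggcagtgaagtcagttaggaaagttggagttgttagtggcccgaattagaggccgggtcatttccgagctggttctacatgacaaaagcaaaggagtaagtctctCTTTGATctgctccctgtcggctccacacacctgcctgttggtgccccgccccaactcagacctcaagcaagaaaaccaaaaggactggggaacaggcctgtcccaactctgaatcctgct
Wnt11: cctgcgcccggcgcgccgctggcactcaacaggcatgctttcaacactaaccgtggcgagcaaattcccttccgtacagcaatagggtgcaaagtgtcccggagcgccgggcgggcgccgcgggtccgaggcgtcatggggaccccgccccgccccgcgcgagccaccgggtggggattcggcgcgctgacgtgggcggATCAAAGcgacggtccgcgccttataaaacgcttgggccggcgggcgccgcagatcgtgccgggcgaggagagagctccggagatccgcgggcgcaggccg
The motif began 71 bases before the start in Wnt5b and 51 bases before it in Wnt11. The other 2 RefSeq starts of Wnt5b and the other start of Wnt11 had no match. For Wnt5b and Wnt11 the start printed is the one with the motif, so a match in it was fixed by that choice. The Wnt5b start at the 5′ end of the gene, chr6:119544298-119544597, is among those without a match. Of all 32851 promoters of the same length, 8.65% held the motif, and the entries printed here were chosen after the levels had been seen. A match is a description of the letters, and no binding was measured.

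All 7 R-spondins and Lgr receptors were called, 3 as higher in SSCs and 4 as lower. Among the R-spondins, Rspo4 and Rspo3 were higher in OPCs, and Rspo1 and Rspo2 in SSCs. Rspo4 had a median of 32.5 CPM in OPCs, between 10.1 and 181, and of 0.795 CPM in SSCs, between 0 and 5.91. The populations did not overlap, although OPC libraries spread widely and the highest value, 181 CPM, was in 1013/1013 OPC replicate 1 (log2 -5.35, SE 0.88, adjusted p = 0.000405). Rspo2 was read 72 times over the 9 OPC libraries, where 2 held more than 3 counts and the highest level was 0.986 CPM. In SSCs it ranged from 5.46 to 27.9 CPM with a median of 10.8, so every SSC library was above every OPC library. The ratio of the mean levels was 92.1 (adjusted p = 0.000642).

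Rspo1 had a median of 0.596 CPM in OPCs (0 to 0.878) and 5.74 CPM in SSCs (4.15 to 7.78), with no overlap (log2 3.63, SE 0.87, adjusted p = 0.00536). Rspo3 had a median of 7.37 CPM in OPCs (3.67 to 39.8) and 2.44 CPM in SSCs (1.41 to 12.5), with overlap (log2 -1.70, SE 0.47, adjusted p = 0.0125). The highest SSC value of Rspo3 was that of 1013/1013 SSC replicate 1, and the other 7 SSC libraries lay at or under 3.1 CPM. An antisense gene covers 13.074% of the exonic bases of Rspo3.

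Lgr4, the Lgr receptor with the highest median level per kilobase of exon in both populations, had a median of 61.9 CPM in OPCs (36.7 to 74) and 19.2 CPM in SSCs (11.6 to 31.3), with no overlap (log2 -1.51, SE 0.23, adjusted p = 0.000179). Lgr6 had a median of 42 CPM in OPCs (15.6 to 80.3) and 14.4 CPM in SSCs (2.03 to 43.5), with overlap (log2 -1.73, SE 0.44, adjusted p = 0.00788). Lgr5, a known stem cell marker of several epithelia, was near the limit of detection in OPCs, where 2 of 9 libraries held more than 3 counts, and had a median of 2.42 CPM in SSCs, with 7 of 8 libraries above 3 counts (log2 5.21, SE 1.36, adjusted p = 0.00914). Lgr5, Lgr6, Rspo1 and Rspo3 did not reach the threshold within any single genotype. Of the 7 R-spondins and Lgr receptors, 2 were called within WT, 3 within +/1013 and 2 within 1013/1013.

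**Figure D2:**
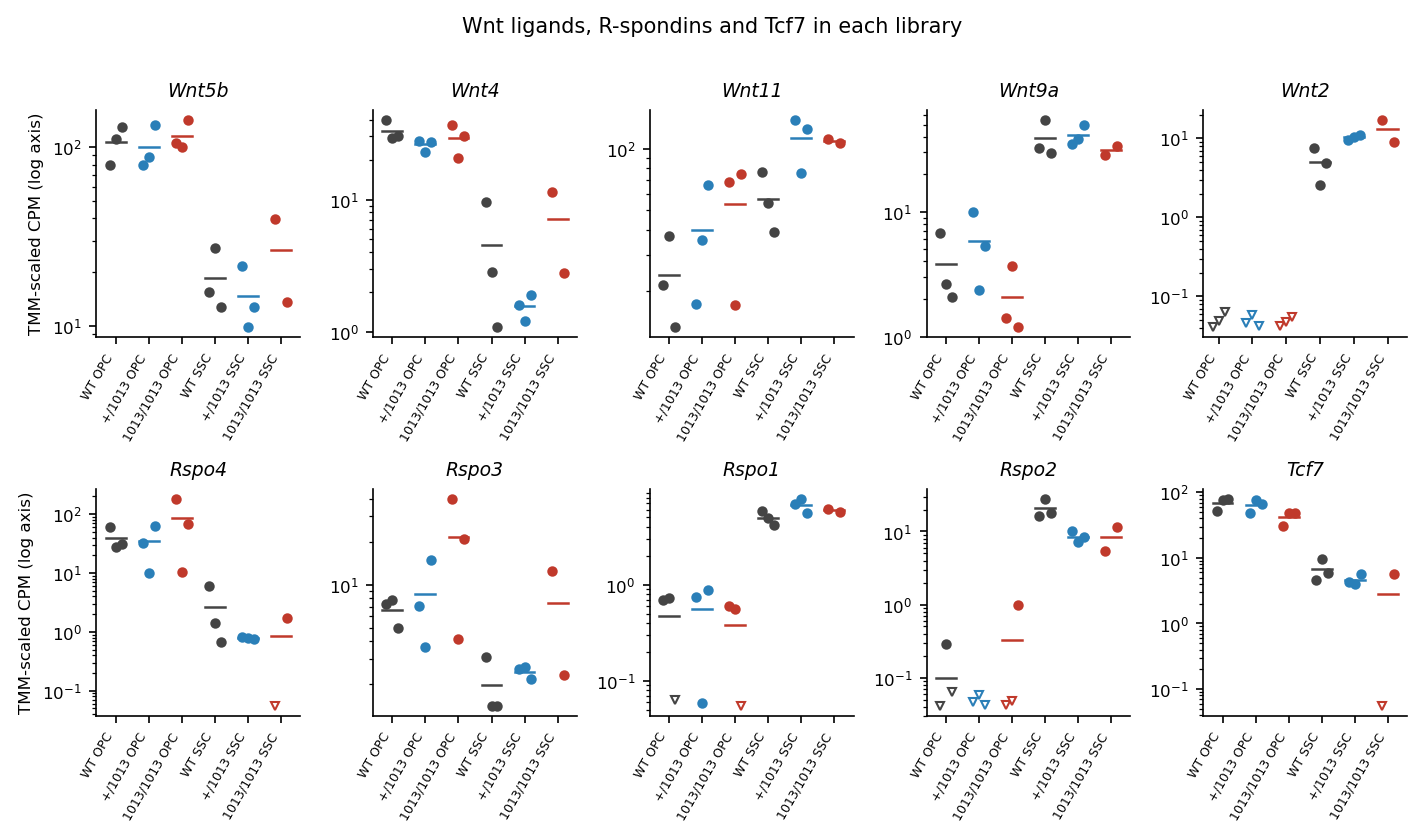
Level in every library (TMM-scaled CPM, log axis) of the Wnt ligands and R-spondins that differed between the populations and of Tcf7, by group; points are libraries, bars are group means, and open triangles are libraries with fewer than 3 counts, drawn at the level of 3 counts. Wnt5b, Wnt4, Rspo4 and Tcf7 lie higher in the 9 OPC libraries, and Wnt9a, Wnt2, Rspo1 and Rspo2 in the 8 SSC libraries, without overlap.

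Of 9 Frizzled receptors tested, 3 were called higher in SSCs (Fzd1, Fzd4 and Fzd8) and 2 lower (Fzd3 and Fzd9). For none of the 9 were the populations without overlap. Fzd9, a receptor known for a role in bone formation by osteoblasts, had a median of 106 CPM in OPCs (57.5 to 148) and 26.1 CPM in SSCs (13.7 to 62.3). Its log2 difference was -1.79 (SE 0.29, adjusted p = 0.000387). Fzd8 had a median of 29.5 CPM in OPCs (16.4 to 48.6) and 90.9 CPM in SSCs (24.7 to 141), with a log2 difference of 1.57 (SE 0.29, adjusted p = 0.000883). Fzd1 had a median of 21.7 CPM in OPCs (12.2 to 35) and 51 CPM in SSCs (19.8 to 96), with a log2 difference of 1.03 (SE 0.25, adjusted p = 0.00665).

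Fzd4, the receptor for the non-Wnt ligand Norrin as well as for Wnt ligands, had a median of 16.9 CPM in OPCs (7.83 to 40.1) and 40 CPM in SSCs (21.6 to 49). The log2 difference was 0.94 (SE 0.30, adjusted p = 0.0277), and this call was lost without WT SSC replicate 2 (adjusted p = 0.0554) or without 1013/1013 SSC replicate 1 (adjusted p = 0.107), with adjusted p values of 0.00411 to 0.118 over all settings. Fzd3, known from planar polarity, had a median of 8.04 CPM in OPCs (4.55 to 15.6) and 1.94 CPM in SSCs (1.11 to 16.1), with a log2 difference of -1.34 (SE 0.38, adjusted p = 0.0141). The other 7 SSC libraries lay at or under 2.6 CPM, and the value of 16.1 CPM was that of 1013/1013 SSC replicate 1. Fzd7, Fzd2 and Fzd5 did not pass the test, with log2 differences of 0.11 (SE 0.28), 0.50 (SE 0.29) and -0.44 (SE 0.38), nor did Fzd10, which had medians of 0.492 CPM in OPCs and 2.11 CPM in SSCs.

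The 3 Lrp co-receptors all differed. Lrp5 was higher in OPCs, with a median of 16.8 CPM (9.63 to 23.2) against 4.51 CPM in SSCs (1.37 to 11.9), and a log2 difference of -1.92 (SE 0.27, adjusted p = 0.000127). Lrp4, which binds the inhibitor sclerostin, was also higher in OPCs, with a median of 12.2 CPM (8.44 to 24.7) against 3.37 CPM (0.238 to 8.69), and a log2 difference of -2.32 (SE 0.46, adjusted p = 0.00144). Lrp6 went the other way, with a median of 25.1 CPM in OPCs (14.7 to 45.9) and 44.5 CPM in SSCs (38.1 to 83.1), and a log2 difference of 0.99 (SE 0.21, adjusted p = 0.0028). Over the mean of genotypes the ranges of each of the 3 overlapped between the populations. Within WT, none of the 3 was called, and Lrp6 was called only within 1013/1013, as higher in SSCs. Lrp4 and Lrp5 were called lower in SSCs in both mutant genotypes. Whether the difference between the populations itself differed from that in WT was tested as an interaction, which neither gene passed. The estimates were -1.0 (SE 1.0, adjusted p = 0.808) for Lrp4 and -1.84 (SE 0.61, adjusted p = 0.377) for Lrp5 in +/1013, and -1.49 (SE 1.07, adjusted p = 0.526) for Lrp4 and -0.76 (SE 0.65, adjusted p = 0.603) for Lrp5 in 1013/1013. Without 1013/1013 SSC replicate 2, Lrp4 was called for 1013/1013 (log2 -4.24, SE 1.01, adjusted p = 0.0187).

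The secreted inhibitors divided sharply between the populations. Of 9 tested, 5 were called higher in SSCs (Dkk2, Dkk3, Sfrp1, Sfrp2 and Sfrp4) and 2 lower (Dkk1 and Wif1). Dkk1 and Dkk2 were close to mutually exclusive. Dkk1 was read 32225 times in OPCs and 97 times in SSCs. Its OPC levels had a median of 53.1 CPM (26.6 to 105), and in SSCs 3 of 8 libraries held more than 3 counts, with a highest level of 0.613 CPM. The ratio of mean levels was 299 in favour of OPCs (adjusted p = 1.49e-05). Dkk2, which can act on Lrp6 as an inhibitor or a weak activator, was read 26232 times in SSCs and 387 times in OPCs. Its SSC levels had a median of 57.9 CPM (23.3 to 88), against a highest value of 2.39 CPM in OPCs, where 4 of 9 libraries held more than 3 counts. The ratio of mean levels was 88.4 in favour of SSCs (adjusted p = 4.37e-06), and both genes were called within each of the 3 genotypes.

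The promoters of this opposite pair are printed for comparison. Dkk1 (ENSMUSG00000024868.8) lies on the minus strand at chr19:30545863-30549665 and Dkk2 (ENSMUSG00000028031.6) on the plus strand at chr3:132085292-132180304. Their RefSeq promoters on GRCm38.p6 are chr19:30549447-30549746 on the minus strand and chr3:132085042-132085341 on the plus strand, again with the TCF/LEF motif in capitals.
Dkk1: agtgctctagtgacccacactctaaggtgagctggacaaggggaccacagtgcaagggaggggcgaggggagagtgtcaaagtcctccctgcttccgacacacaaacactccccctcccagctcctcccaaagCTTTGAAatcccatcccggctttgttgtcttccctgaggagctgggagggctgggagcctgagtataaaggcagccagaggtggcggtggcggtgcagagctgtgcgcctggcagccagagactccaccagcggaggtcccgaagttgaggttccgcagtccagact
Dkk2: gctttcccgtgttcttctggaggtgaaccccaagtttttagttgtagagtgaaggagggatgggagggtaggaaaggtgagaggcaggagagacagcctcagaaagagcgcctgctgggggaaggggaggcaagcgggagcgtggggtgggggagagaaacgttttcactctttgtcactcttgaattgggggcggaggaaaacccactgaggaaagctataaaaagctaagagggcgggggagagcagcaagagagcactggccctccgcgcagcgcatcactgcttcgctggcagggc
The motif began 117 bases before the start of Dkk1. No match lay in the window of Dkk2, which says only that these letters are absent there. The promoter table had an entry for 33 of the 52 genes (63.5%), too few to compare the genes as a set, and 3 of the 33 held the motif, namely Wnt5b, Wnt11 and Dkk1.

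Dkk3, a divergent Dickkopf that is not known to bind Lrp5 or Lrp6, was abundant in both populations. Its median was 67.9 CPM in OPCs (35.4 to 85.6) and 358 CPM in SSCs (110 to 447), with no overlap and a log2 difference of 2.34 (SE 0.25, adjusted p = 9.11e-06). Sfrp4, loss of which thins cortical bone, had the highest median level per kilobase of exon of all inhibitors in SSCs. Its median level was 991 CPM there (735 to 1350), against 94 CPM in OPCs (58.5 to 170). The log2 difference was 3.29 (SE 0.22, adjusted p = 1.14e-07), with all 8 SSC libraries above all 9 OPC libraries. Sfrp1 had a median of 8.93 CPM in OPCs (1.76 to 20.4) and 36.1 CPM in SSCs (23.6 to 77), without overlap (log2 2.00, SE 0.44, adjusted p = 0.00317). Sfrp2 had a median of 4.87 CPM in OPCs (0 to 22.8) and 54.3 CPM in SSCs (14.8 to 111), with overlap (log2 2.99, SE 0.68, adjusted p = 0.00417). An antisense gene covers 16.117% of the exonic bases of Sfrp2.

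Wif1, which binds Wnt ligands outside the cell, was higher in OPCs, as Dkk1 was, with a median of 846 CPM (276 to 1130) against 197 CPM in SSCs (73.8 to 591). The ranges overlapped, and the log2 difference of -1.37 (SE 0.42, adjusted p = 0.0224) passed the threshold. It fell to -0.79 (adjusted p = 0.161) without the 4 libraries that stood apart, a setting added after the data had been seen, and to -1.09 (adjusted p = 0.0513) without 1013/1013 SSC replicate 1, with adjusted p values of 0.00141 to 0.161 over all settings. Notum had a median of 24.6 CPM in OPCs (12.7 to 38.7) and 8.73 CPM in SSCs (0.0183 to 29.7) and did not pass the test (log2 -1.44, SE 0.64, adjusted p = 0.102). For Notum, 38.123% of the exonic bases are shared with antisense genes. Sfrp5 did not pass it either, with medians of 15.6 CPM in OPCs and 4.58 CPM in SSCs (log2 -1.63, SE 0.87, adjusted p = 0.169).

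**Figure D3:**
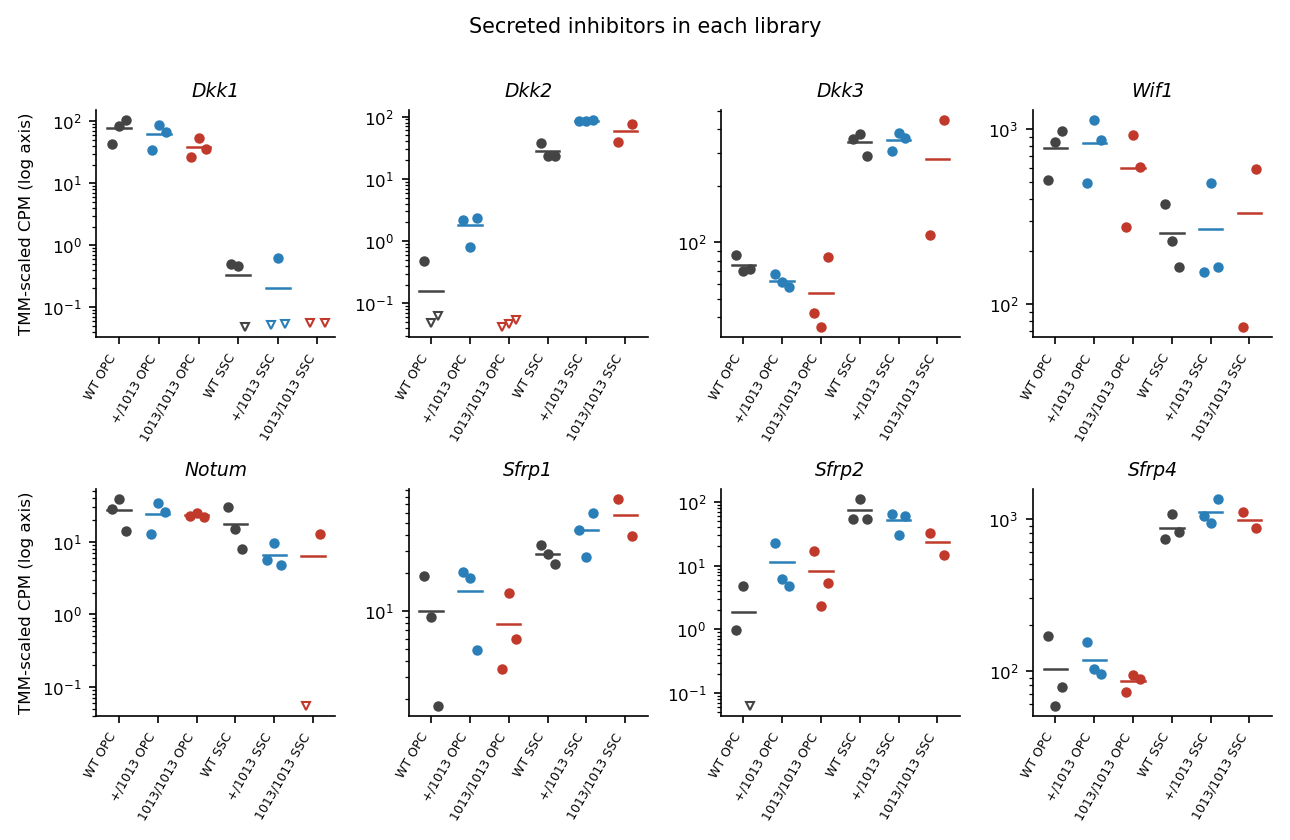
Level in every library (TMM-scaled CPM, log axis) of the Dickkopf genes, Wif1, Notum and the Sfrp genes, by group; points are libraries, bars are group means, and open triangles are libraries with fewer than 3 counts, drawn at the level of 3 counts. Dkk1 lies at 26.6 to 105 CPM in OPCs and at or under 0.613 CPM in SSCs, Dkk2 shows the reverse, and Sfrp4 reaches 735 to 1350 CPM in SSCs.

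Of the nuclear factors, Tcf7 was lower in SSCs, whereas the call for Lef1 depended on the setting and the related Tcf7l1, on the further pathway list given below, was higher in SSCs. Tcf7 had a median of 51.3 CPM in OPCs (30.8 to 79.3) and 5.18 CPM in SSCs (0 to 9.49), with no overlap, a log2 difference of -3.68 (SE 0.63, adjusted p = 0.000532) and a call in each genotype, which was lost in WT with replicate numbers as pairs (adjusted p = 0.109). Lef1 had a median of 12.4 CPM in OPCs (4.08 to 22.9) and 3.42 CPM in SSCs (0 to 13.1). Its log2 difference of -1.96 (SE 0.72, adjusted p = 0.0489) lay at the threshold. The call was lost in 15 of 26 other settings, 12 of which left out a single library, and adjusted p values ran from 0.000172 to 0.12. Axin2, a feedback inhibitor and common readout of β-catenin signalling, was low throughout, with medians of 0.255 CPM in OPCs (0.0325 to 0.874) and 0.767 CPM in SSCs (0 to 1.3), and did not pass the test (log2 0.54, SE 0.83, adjusted p = 0.697). T cells also express Tcf7 and Lef1. The sum of 8 T cell markers was 0.903 to 11.2 CPM in OPCs and 0.0678 to 41.5 CPM in SSCs, with the highest value in WT SSC replicate 3. All 8 had more than 3 counts in at least 1 OPC library, 1 of them in every OPC library, and 7 had more than 3 counts in at least 1 SSC library, with no count of Cd8a in SSCs. Their part in the levels of Tcf7 and Lef1 was not tested. In 1013/1013 SSC replicate 1, Tcf7, Lef1, Axin2, Lgr5 and Rspo4 were all at 0. Dkk1 was at 0 there too, as it was in 1013/1013 SSC replicate 2 and in +/1013 SSC replicates 1 and 3.

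The OPC libraries differed from the SSC libraries in osteoblast and chondrocyte transcripts as given above, and the part of these in the differences between the populations was not tested. Osteocyte markers, a list of 5 that includes the Wnt inhibitor gene Sost, summed to 420 to 1560 CPM in OPCs and 8.31 to 29 CPM in SSCs. Col1a1 and Col1a2 alone took 16.1 to 38.7% of the counts in OPCs and 0.563 to 2.78% in SSCs, which lowers the plain CPM of every other gene in OPCs. The TMM factors, 0.734 to 1.02 in OPCs and 1.06 to 1.42 in SSCs, adjust for this.

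To compare genes with each other, levels were divided by the length of the exons in kilobases (CPM per kb). On that scale the Wnt ligands summed to a median of 61.4 CPM per kb in OPCs (51.6 to 82.5) and 49.5 in SSCs (29.2 to 69.2), so the total levels overlapped while the make-up differed. Wnt5b accounted for a median of 64.5% of the ligand sum in OPCs and 13.1% in SSCs. Wnt11 accounted for 14.6% in OPCs and 42.4% in SSCs, and Wnt9a for 1.38% and 23.4%. Wnt4 supplied 11.3% in OPCs and 1.10% in SSCs.

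The R-spondins exchanged members in the same way, since Rspo4 made up a median of 83.5% of their sum per kb in OPCs and 5.39% in SSCs, whereas Rspo1 and Rspo2 made up 41.3% and 31.2% in SSCs and 1.28% and 0% in OPCs. Their summed level was 5.47 to 89.5 CPM per kb in OPCs and 5.55 to 9.66 in SSCs. Per kb, Rspo2 led in the 3 WT SSC libraries. Rspo1 led in all +/1013 SSC libraries and in 1013/1013 SSC replicate 2, and Rspo3 in 1013/1013 SSC replicate 1. Frizzled receptors summed to a median of 75 CPM per kb in OPCs (55.9 to 85.3) and 60 in SSCs (28.3 to 85.6). Fzd9 took 64.9% of this in OPCs and 19.6% in SSCs, where Fzd8 with 26.6% and Fzd1 with 20.1% had the larger medians. The Lrp co-receptors summed to 4.86 CPM per kb in OPCs and 4.36 in SSCs (medians), and Lrp6 made up 36.4% in OPCs and 84.5% in SSCs.

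Among the inhibitor families, only the Sfrp totals did not overlap between the populations, and the sums were not tested. The Sfrp genes summed to 20.3 to 60.4 CPM per kb in OPCs and 216 to 366 in SSCs, and Sfrp4 made up 62.7% and 87% of the median library. The Dickkopf genes summed to a median of 43.5 CPM per kb in OPCs (23.5 to 64.7) and 117 in SSCs (43.3 to 154). Dkk1 made up 60.6% of that sum in OPCs and 0.00704% in SSCs, where Dkk3 made up 84.9%. In OPCs Dkk3 made up 38% (32.5 to 62.9%), and it was above Dkk1 in 4 of the 9 libraries. Wif1 and Notum together summed to a median of 365 CPM per kb in OPCs (123 to 482) and 85.8 in SSCs (30.4 to 249).

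**Figure D4:**
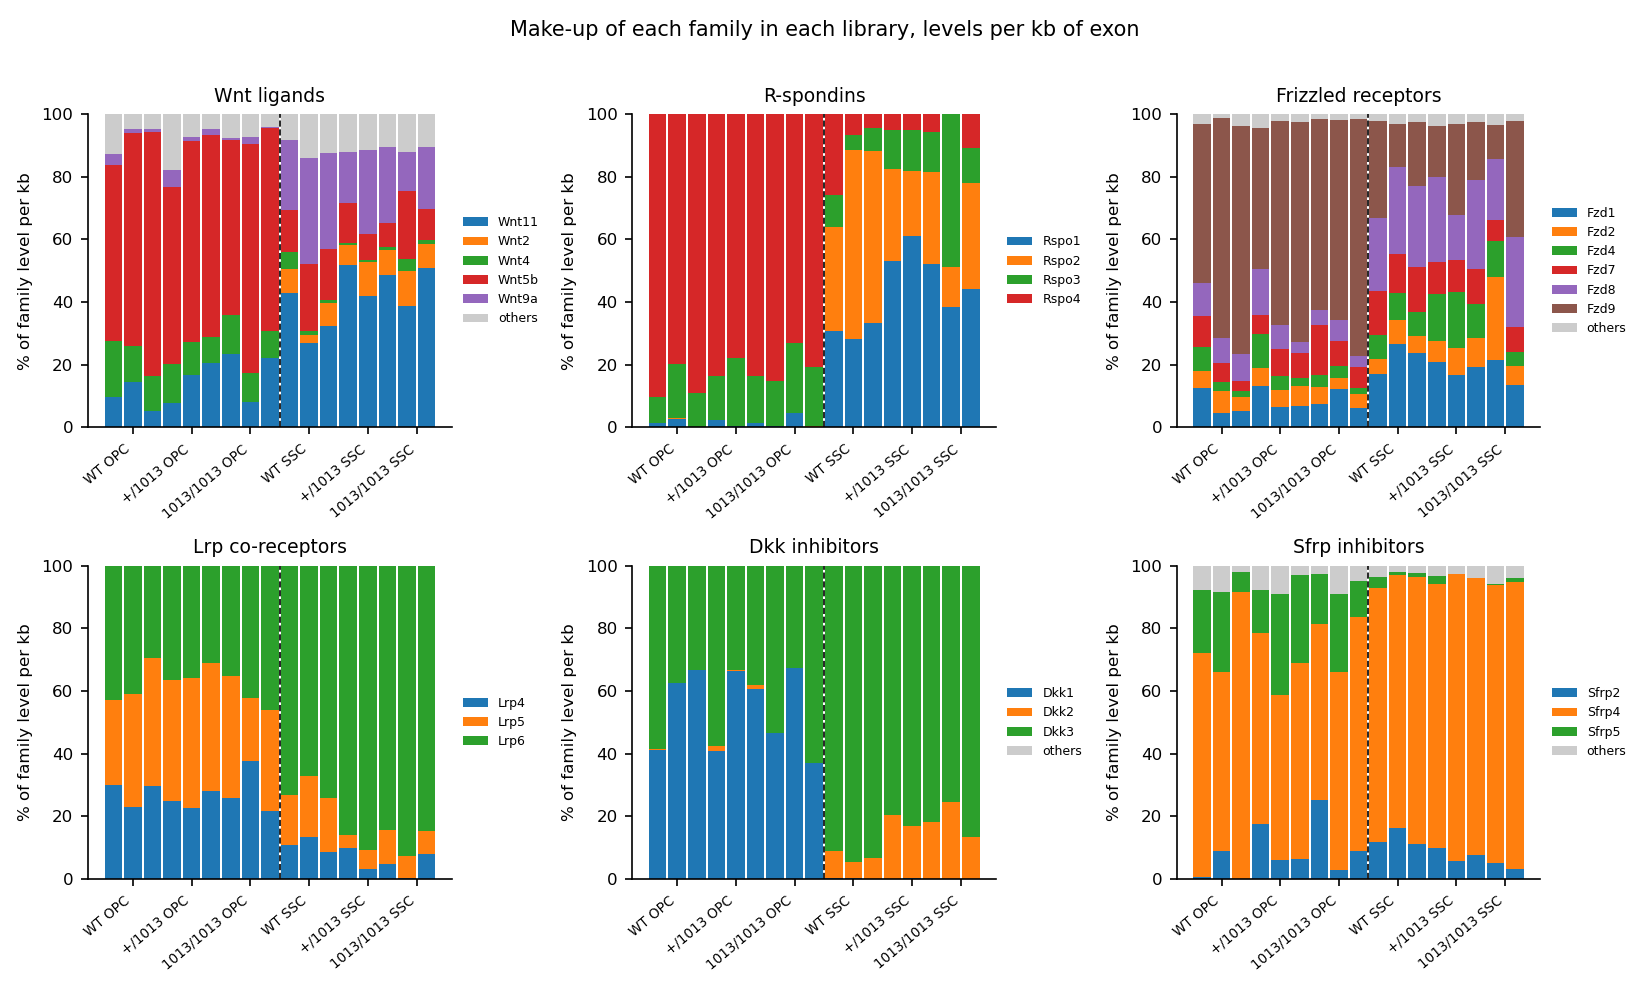
Share of each gene in the summed level of its family (percent of CPM per kb of exon) in every library, for the Wnt ligands, R-spondins, Frizzled receptors, Lrp co-receptors, Dickkopf genes and Sfrp genes; bars are libraries and the dashed line parts the 9 OPC from the 8 SSC libraries. Wnt5b and Rspo4 lead in all 9 OPC libraries, and Wnt11 leads in 7 of 8 SSC libraries and Wnt9a in 1. Rspo2 leads in the 3 WT SSC libraries, Rspo1 in 4 mutant SSC libraries and Rspo3 in 1 mutant SSC library. Dkk1 leads in 5 OPC libraries and Dkk3 in the other 4 and in all 8 SSC libraries. Sfrp4 leads in all libraries of both populations.

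A further list of 50 genes covered secretion, other receptors, other inhibitors, cytoplasmic and planar polarity components, nuclear partners and targets of the pathway. Of 46 tested between SSCs and OPCs over the mean of genotypes, 21 were called (45.7%, background 30.2%), 8 as higher in SSCs and 13 as lower, with a median log2 difference of -0.09. Within WT, +/1013 and 1013/1013, 11, 8 and 10 of the 46 were called (23.9%, 17.4% and 21.7%, against a background of 11.4%, 12.5% and 13.1%). Neither secretion gene, Porcn or Wls, passed the test. Ctnnb1, which encodes β-catenin, was lower in SSCs, at 226 to 270 CPM against 480 to 781 CPM in OPCs, without overlap (log2 -1.40, SE 0.11, adjusted p = 5.24e-07). The receptors of β-catenin-independent signals Ror1, Ror2, Ryk and Ptk7 were all lower in SSCs, with log2 differences of -1.62, -0.94, -1.52 and -3.05. Ryk and Ptk7 did not overlap between the populations and were called within each genotype. Ror1 and Ror2 overlapped and were not called within any single genotype. Sost, made by osteocytes, was read 6 times in SSCs and 616 times in OPCs, and the related Sostdc1 had a log2 difference of -3.68.

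Targets on the list went in both directions. Ccn4 was at 217 to 614 CPM in OPCs and 7.04 to 23.9 CPM in SSCs (log2 -4.61, SE 0.26, adjusted p = 2.53e-08), and Ccn5 at 12.1 to 36.8 CPM in OPCs and 148 to 284 CPM in SSCs (log2 2.81, SE 0.21, adjusted p = 4.85e-07). Ccnd1, a cell cycle gene, was lower in SSCs (log2 -1.76). The feedback inhibitor Nkd2 was higher in SSCs (log2 1.3), as were Tcf7l1 (log2 1.33), Dvl1 (log2 0.92), Csnk1e (log2 0.77), Apc (log2 0.67), Reck (log2 0.66) and Prickle2 (log2 1.00). The other genes called lower in SSCs were Dvl3 (log2 -0.95), Gsk3a (log2 -0.73), Prickle1 (log2 -1.53) and Celsr1, for which OPCs had 17.2 times the mean level.

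Between genotypes, none of the genes passed edgeR's test in OPCs. The fit of the 9 OPC libraries tested 40 of the 52 genes and 16207 genes in all, of which 0%, 0.00617% and 0% were called for +/1013 against WT, 1013/1013 against WT and 1013/1013 against +/1013. At an unadjusted p under 0.05 stood 0, 3 and 1 of the 40 (background 2.04%, 3.38% and 3.17%), and DESeq2 called 0 of the 40 in each (background 0.358%, 0.259% and 0.364%). Groups did not overlap for 5, 5 and 2 of the 40, against 5.28%, 7.61% and 7.34% of all genes. The mutant comparisons share the WT libraries.

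Tcf7 was at 51.3, 76.4 and 79.3 CPM in WT OPCs, at 47.8, 76.5 and 66.1 CPM in +/1013 OPCs, and at 30.8, 47.7 and 49.1 CPM in 1013/1013 OPCs. All 3 homozygous libraries lay under the lowest WT library, with a log2 difference of -0.70 (SE 0.28) that did not pass the adjustment over all genes (adjusted p = 1). Dkk2, although low in OPCs, had no count in any of the 3 1013/1013 OPC libraries, while +/1013 OPCs were at 2.18, 0.796 and 2.39 CPM and WT OPCs at 0.475, 0 and 0 CPM. The +/1013 mean was at least 37.4-fold above the level of 3 counts per library in 1013/1013 OPCs (adjusted p = 0.999). Dkk1 was at 43.5, 85 and 105 CPM in WT, 34.8, 88.7 and 67.1 CPM in +/1013, and 26.6, 53.1 and 35.4 CPM in 1013/1013 OPCs, with overlapping groups.

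In SSCs, too, none of the 43 genes tested passed edgeR's test in a genotype comparison. Of all 17659 genes, 0.0736%, 0% and 0% were called for +/1013 against WT, 1013/1013 against WT and 1013/1013 against +/1013. At an unadjusted p under 0.05 stood 6, 9 and 1 of the 43 (background 17.3%, 18.3% and 5.53%). Groups did not overlap for 9, 14 and 5 of the 43, against 31.2%, 40.7% and 15.9% of all genes. The shares without overlap lie below the background. The 9 genes at an unadjusted p under 0.05 for 1013/1013 against WT are 20.9% of the 43, near the background, and none of these shares is a result about the genes. Without 1013/1013 SSC replicate 2, which leaves only the library with the fewest genes in that group, 13 of the genes were called against WT (background 14.8%) and 7 against +/1013 (background 9.17%). The values that follow therefore describe single genes, chosen as those with an unadjusted p under 0.05 and groups without overlap.

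Dkk2 had the smallest adjusted p of the 43 genes. It was at 37.9, 23.5 and 23.3 CPM in WT SSCs, at 86.4, 84.5 and 88 CPM in +/1013 SSCs, and at 39.3 and 76.4 CPM in 1013/1013 SSCs. Every mutant library was above every WT library, and the log2 differences from WT were 1.60 (SE 0.29, adjusted p = 0.101) in +/1013 and 1.04 (SE 0.31, adjusted p = 0.172) in 1013/1013. Rspo2 was at 16.3, 27.9 and 18.1 CPM in WT SSCs, at 10.1, 7.07 and 8.33 CPM in +/1013, and at 5.46 and 11.5 CPM in 1013/1013. Here every mutant library was below every WT library, with log2 differences of -1.31 (SE 0.38, adjusted p = 0.174) and -1.29 (SE 0.44, adjusted p = 0.200).

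Fzd7 was at 45.1, 48.4 and 34.8 CPM in WT SSCs, 21.5, 13 and 32.5 CPM in +/1013 and 16.6 and 26.7 CPM in 1013/1013. All 5 mutant libraries were lower, with log2 differences of -0.96 (SE 0.35, adjusted p = 0.235) and -0.97 (SE 0.40, adjusted p = 0.262). Lrp5 was at 6.93, 11.9 and 7.42 CPM in WT SSCs and at 1.37, 1.82 and 4.61 CPM in +/1013, a log2 difference of -1.77 (SE 0.62, adjusted p = 0.219). It was at 4.42 and 2.68 CPM in 1013/1013 SSCs, also below the WT libraries. Wnt6 was at 1.16, 2.55 and 0.758 CPM in WT SSCs and at 4.88, 4.43 and 3.51 CPM in +/1013 (log2 1.5, SE 0.65, adjusted p = 0.286), with 2.22 and 2.83 CPM in 1013/1013.

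Between 1013/1013 and WT SSCs, 4 further genes had both an unadjusted p under 0.05 and groups without overlap. Wnt2 was at 7.63, 2.59 and 4.85 CPM in WT, at 9.58, 10.4 and 11.2 CPM in +/1013 and at 17.1 and 8.92 CPM in 1013/1013, with a log2 difference of 1.39 (SE 0.53, adjusted p = 0.232) for the homozygous libraries. Wnt11 was at 76.8, 54 and 39 CPM in WT, 138, 75.8 and 125 CPM in +/1013 and 111 and 107 CPM in 1013/1013, with a log2 difference of 0.96 (SE 0.33, adjusted p = 0.205) in the latter. Both ligands were higher in SSCs than in OPCs, as were Dkk2, Sfrp1, Rspo2 and Sfrp2. Of these, Rspo2 and Sfrp2 were lower in 1013/1013 than in WT SSCs, and the others were higher. Sfrp1 was at 33.3, 28 and 23.6 CPM in WT, 43.9, 26.7 and 59.6 CPM in +/1013 and 77 and 38.9 CPM in 1013/1013 (log2 1.06, SE 0.40, adjusted p = 0.231). Sfrp2 was at 54.3, 111 and 54.2 CPM in WT, 63.4, 30.1 and 60.8 CPM in +/1013 and 32 and 14.8 CPM in 1013/1013 (log2 -1.62, SE 0.53, adjusted p = 0.189).

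DESeq2's test called more genes than edgeR in SSCs. For +/1013 against WT it called 3 of the 43 (background 7.37%), namely Lrp5, Dkk2 and Rspo2, and for 1013/1013 against WT it called Sfrp2 and Rspo2 (background 9.67%). It called none for 1013/1013 against +/1013 (background 0.957%). Of the 50 further pathway genes, 43 were tested in SSCs and 45 in OPCs, and edgeR called none in a genotype comparison. Ptk7 was at 20.4, 31.6 and 20.9 CPM in WT SSCs, 6.59, 4.31 and 11.8 CPM in +/1013 and 4.27 and 7.17 CPM in 1013/1013, with log2 differences of -1.70 (SE 0.44, adjusted p = 0.158) and -2.08 (SE 0.52, adjusted p = 0.136). The WT SSC libraries held more osteoblast lineage transcripts and counts for more genes than the mutant ones, as given above, and the part of these in the genotype values was not tested.

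**Figure D5:**
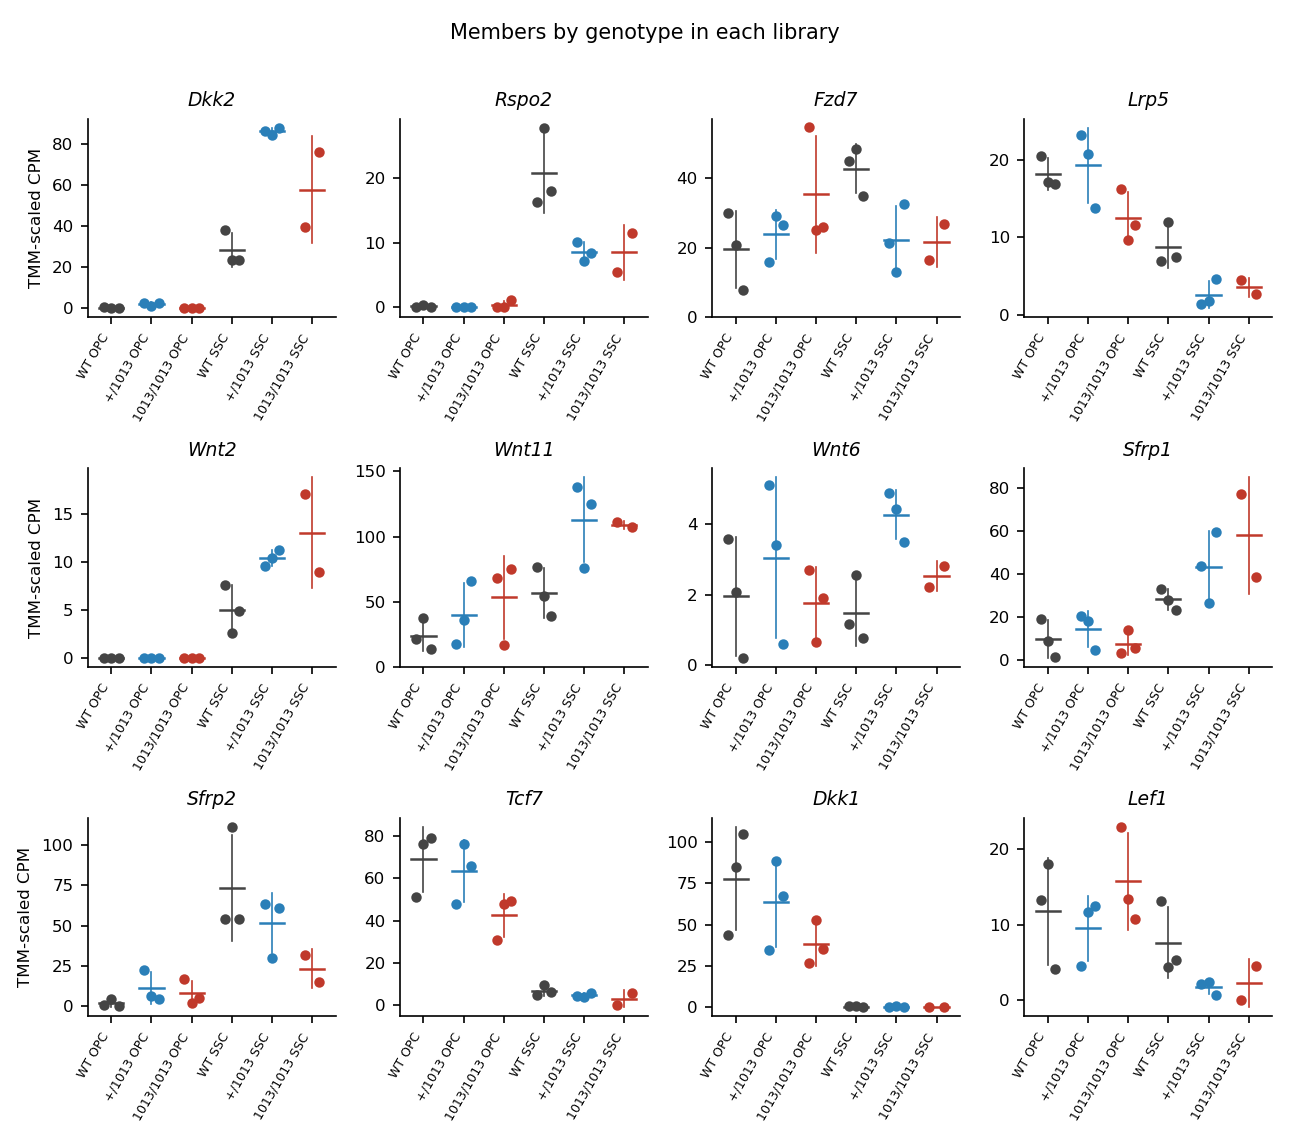
Level in every library (TMM-scaled CPM, linear axis) of 12 genes by cell type and genotype; points are libraries, bars are group means and lines are 1 SD. In SSCs, Dkk2 lies higher and Rspo2 and Fzd7 lie lower in all 5 mutant libraries than in the 3 WT libraries, and none of these differences passed the adjusted test.

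Whether the effect of the mutation differed between the populations was tested as an interaction over all 17 libraries. None of the 45 genes was called for 1013/1013 or for +/1013, where 0.153% and 0.084% of all genes were. Without 1013/1013 SSC replicate 2, 6 were called for 1013/1013 (background 8.73%). At an unadjusted p under 0.05 stood 4 genes for 1013/1013 (Fzd3, Fzd7, Dkk2 and Sfrp2, background 15%) and Lrp5 for +/1013 (background 10.6%). DESeq2 called Dkk2 for 1013/1013 (background 5.64%), a gene without counts in 1013/1013 OPCs, and no gene for +/1013 (background 2.16%). For Fzd7 the 1013/1013 estimate, SSC effect minus OPC effect, was -1.84 (SE 0.72, adjusted p = 0.276).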

How the data were processed

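Per the study's methods, RNA from each pool of 3000 cells was amplified with SMART-Seq v4, made into Nextera XT libraries and sequenced in paired ends, reads shorter than 50 bp were removed, and the remainder were aligned to mm10 with STAR and counted per gene with HTSeq. The submitters' processing notes also name FastQC and DESeq2. Tool versions, the annotation and the strand setting of the counting are not given in the sources used here. The files deposited by the authors hold these raw counts, 1 table per library, with 55335 gene identifiers and 5 HTSeq counters that were kept out of library sizes. Of the identifiers, 55154 matched GENCODE M21, from which symbols, exon lengths and positions (GRCm38) were taken. Unassigned counts on no feature ran from 1.15 to 2.62% in OPCs and 1.5 to 4.15% in SSCs.

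Counts were analysed in R 4.3.3 with edgeR 4.0.16 (filterByExpr, TMM factors, quasi-likelihood test), and p-values were adjusted by Benjamini-Hochberg over all genes tested. A gene was called at an adjusted p under 0.05 and at least 1.5-fold, the thresholds of the study's methods. SSCs were compared with OPCs, and the interactions tested, in 1 fit of all 17 libraries (20238 genes). Genotypes were compared within OPCs (16207 genes) and within SSCs (17659 genes). SEs are the log2 difference over the root of the F statistic. Where a population was at or near 0, the ratio of mean levels is given, or a lower bound against 3 counts per library. These floors cover counting error only, and reads carry no molecular identifiers. The steps were first tested on simulated data. Alternatives were DESeq2 1.42.0, other normalizations and filters, other libraries in the fit, each library left out, and the replicate number as a block.

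Replicate numbers were taken as pairs where the deviations of every same-numbered pair correlated above 0.1, which held for SSC against OPC in WT (0.135, 0.246 and 0.402) and for 1013/1013 against +/1013 OPCs (0.168, 0.129 and 0.227). In WT, some differently numbered libraries correlated about as highly. SSC replicate 1 gave 0.144 with OPC replicate 2, and SSC replicate 2 gave 0.247 with OPC replicate 1. The numbers are therefore not shown to pair the WT libraries, and calls lost with them as pairs carry this limit. The labels do not say that a number marks the same mice. No library repeated another. Promoters are from the RefSeq table of GRCm38.p6. The genes and lists were chosen with earlier results of these data known. Described with their values were all genes called between the populations with a group mean of at least 10 CPM, Lrp5, Lrp6, Axin2, Lef1 and Tcf7 in any case, and, between genotypes, those with 1 CPM or more in the mean of a group, an unadjusted p under 0.05 and groups without overlap. Other genes were added as the highest and lowest of a role, and Lgr5, Rspo1 and Ptk7 after their values were seen.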

Additional observations from a re-analysis of the deposited data

How the results depend on the processing

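Over the mean of genotypes, the 29 calls between SSCs and OPCs stayed within 1.5-fold in 26 of 27 alternatives and ran from 27 to 31 with single libraries left out. With at least 10 counts required in every library, 19 were called, since fewer genes were tested. Without the 4 libraries that stood apart, a setting chosen after seeing the data, 28 were called, of which 27 were shared. Within WT, leaving out single libraries gave 7 to 13 calls, within +/1013 10 to 15 and within 1013/1013 8 to 17. The filter of 10 counts gave 10 in +/1013, and a fit of only the 2 groups gave 6 in 1013/1013. With the replicate block, 8 were called in WT. The block gave 28 over the mean of genotypes, 11 in +/1013, 5 in 1013/1013 and none in the genotype comparisons and interactions. Whether a shared number marks paired libraries is not known. Among single genes, only Axin2 between the populations turned its direction, at -1.58 (adjusted p = 0.211, with 0.211 to 0.961 over its alternatives) without 1013/1013 SSC replicate 2, and single libraries left out gave -1.58 to 0.97. Of 976 other values for 42 named differences, 949 kept their direction and side of the threshold.

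For the further pathway list, the WT count of 11 was 6 without the 4 libraries and 6 to 10 with single libraries left out. The +/1013 count of 8 was 14 in DESeq2, 13 without the 4 libraries and 8 to 10 with single libraries left out. The 1013/1013 count of 10 was 5 without the 4 libraries, 5 with the replicate block, 3 in a fit of the 2 groups and 5 to 13 with single libraries left out. Between genotypes in SSCs, DESeq2 called 3 genes described here and 3 of the pathway list for +/1013, and 2 and 2 for 1013/1013, and the fit of all 17 libraries called 1 of the list in each. Leaving out single libraries gave 0 to 13 genes and 0 to 8 of the list for 1013/1013 against WT, and 0 to 7 and 0 to 6 against +/1013. For the 1013/1013 interaction, DESeq2 called 1 gene and 1 of the list, the filter of 10 counts 1 of the list, and single libraries left out gave 0 to 6 and 0 to 5. DESeq2 called 2 of the list in the +/1013 interaction. Each highest value came without 1013/1013 SSC replicate 2, where the 1 library left is assumed to vary like the other groups. The cause of these differences was not tested.

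In OPCs, no alternative called a gene between genotypes. DESeq2 gave no adjusted p for Sfrp2 between the populations. With plain CPM, 27 of the 52 genes had the higher median in SSCs, against 25 with TMM scaling. Depth limits what can be said of genes such as Dkk1 in SSCs or Dkk2 and Lgr5 in OPCs, where many libraries held 3 counts or fewer. The strand of the counting leaves Notum, Sfrp2, Rspo3, Lef1, Fzd5 and Wnt11 uncertain by their overlap with other genes.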
